A study of Rattus norvegicus with 6 samples.

Results

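The genes described here encode the proteasome, its assembly chaperones and its regulators, and were taken from the arrays by name. Every non-control probe whose gene name ran from Psma to Psmg followed by a digit was used, except those of the interferon-inducible subunits Psmb8, Psmb9 and Psmb10, and the probe with the brightest mean stood for its gene. The pattern took 50 probes of 45 genes, and all 45 were among the 17536 genes tested. They comprised 8 genes of the alpha ring and 8 of the beta ring of the 20S core, 6 ATPases and 11 non-ATPase subunits of the 19S cap, 6 assembly chaperones, 4 activators and 1 inhibitor. The remaining gene, Psmc3ip, carries the name of an ATPase it binds but encodes a factor of meiotic recombination, so it is a member by name only. The Psmc, Psmd and Psmb names leave out the cap subunits Adrm1 and Sem1 and the core chaperone Pomp, which are given with the partner genes.

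RNA from samples labelled whole heart was measured on 6 single-colour Agilent arrays of rat probes, with 3 arrays in each group. The AACO group received AACO, a Chinese medicine formula whose abbreviation the labels leave unexplained, as a solution at 0.386 µg/g every day for 8 weeks. The control group received the same amount of double-distilled water over the same time, and tissue was taken 24 h after the last dose in both groups. According to the series text all animals of both groups had TAC, which in this field stands for transverse aortic constriction, a surgical model of pressure overload, so no unoperated heart is among the arrays. Strain, sex and age are not given in the labels used here. The series text speaks of mice, while the sample labels and the probes' genome build, rn4, are those of the rat. It states that donors differed between experiments, but not which array came from which animal, so p-values measure only the spread between these samples.

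The proteasome is the main site of regulated protein breakdown in the cytosol and nucleus. Its barrel-shaped 20S core is closed by rings of alpha subunits and cuts proteins inside with its beta subunits, while the 19S cap recognises ubiquitin chains and unfolds and feeds in the tagged protein with a ring of ATPases. In heart muscle this route removes damaged and misfolded sarcomere proteins, and the transcription factor NFE2L1 is known to raise most subunit genes together when the proteasome is inhibited.

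All values below are log2 of the processed spot signal minus the 75th percentile of the same array, called scaled log2 signal, and a log2 fold change is AACO minus control with its standard error. A gene is said to have risen or fallen where limma's p, adjusted by Benjamini-Hochberg over all 17536 genes, was under 0.05. All 3 AACO arrays lay on 1 slide and in 1 scan, and all 3 control arrays on another, so in every value here slide and scan cannot be told apart from group. AACO replicates 1 and 2 had high scaled log2 signal of the atrial transcript Myl7 (4.83 and 6.26), against −1.06 on AACO replicate 3 and −2.91 to −1.51 on the control arrays. All 8 cardiomyocyte markers were well above background on every array and none passed the test. Of 12 macrophage markers 9 fell, or 75%, against 4.94% of all genes tested. The other 3 did not pass: Lyz2 (−0.81, adjusted p = 0.0766), Aif1 (−0.07) and Csf1r (0.04). The summed linear level of the 12 was 14.9 to 16.1 on the AACO arrays and 24.9 to 37.2 on the control arrays. Bright probes, such as those of Lyz2 and C1qb, weigh most in this sum. Of the other cell type markers tested, 1 of 9 of T and NK cells (Cd4) and 1 of 3 of red cells (Alas2) fell, and none of 7 endothelial, 7 fibroblast, 4 atrial or 1 B cell marker passed. The endothelial markers had 6 negative values and 1 positive (median −0.32). In limma 4 of these 7 had an unadjusted p under 0.05, or 57.1%, against 30.8% of all genes. Without scaling between arrays all 7 were positive. In whole tissue, fewer cells of a type and less RNA per cell cannot be told apart. The part of these cell markers in the results for the proteasome was not tested.

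In scaled log2 signal, most proteasome genes read nearly the same in AACO hearts and control hearts. Of the 45 genes 1 rose, the thymus-type beta subunit gene Psmb11, whose direction turned with another background correction, and 1 fell, the cap subunit gene Psmd8, while the other 43 did not pass. Those 2 calls are 4.44% of the members, and 11.3% of all genes tested were called, 6.32% higher and 4.94% lower. At an unadjusted p under 0.05 stood 6 members, which is 13.3%, against 30.8% of all genes. The 3 with higher values were Psmb11, Psmc6 and Psme4, and the 3 with lower values were Psmd8, Psmd4 and Psmd9. The number of members at that p depends on the processing. It was 1 with the other background correction, normexp, and 13 without scaling between arrays, where 5598 and 8457 of all genes stood.

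The log2 fold changes of the members were small in size as well as seldom called. Their median was −0.02, against 0.04 over all genes, with 20 positive and 25 negative values from −0.74 for Psmd8 to 0.66 for Psmb11. Dropping the sign, the median size was 0.0887 for the members and 0.238 for all genes. Past 0.5 in either direction lay 2 of the 45 members, Psmb11 and Psmd8, against 23.1% of all genes. The 95% interval of the log2 fold change lay wholly between −0.5 and 0.5 for 36 members, or 80.0%, against 36.9% of all genes. For these 36 genes a change of the scaled signal beyond 1.41-fold either way is outside the interval. The bound is relative to the level of each array and does not cover a shift shared by most genes. Without scaling between arrays the median of the members was 0.47, against 0.52 for all genes. In that setting 44 of the 45 members were positive and 7 were called higher.

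**Figure D1:**
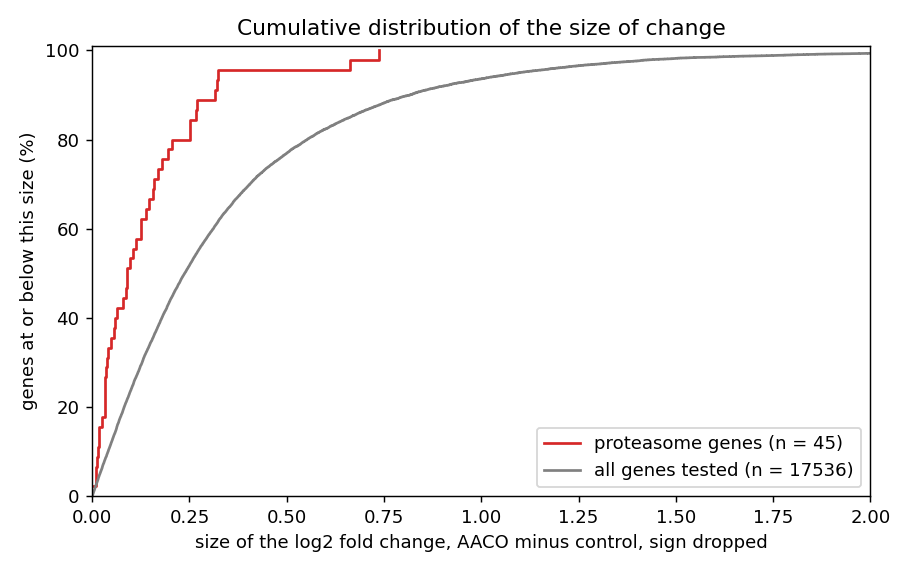
Cumulative share of genes (vertical axis, percent) against the size of the log2 fold change between AACO and control with the sign dropped (horizontal axis, shown to 2), for the 45 proteasome genes and all 17536 genes tested. The line of the proteasome genes climbs sooner, with a median size of 0.0887 against 0.238.

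Genes of like signal lay between the members and all genes in the share called, the size of change, the interval and the spread, but not in overlap. Among the 3142 genes whose mean signal lay within the members' quartiles, 9.77% were called, 13.6% had a change past 0.5 and 56.6% had an interval within 0.5 of 0. The median residual SD was 0.104 for the members, 0.127 for those genes and 0.175 for all genes. For 11 members, 24.4%, the AACO and control values did not overlap, against 37.4% of all genes and 39.2% of those of like signal. In 6 of these AACO was higher (Psma7, Psmb3, Psmb11, Psmc3ip, Psmc6 and Psme4), and in 5 it was lower (Psmc4, Psmd4, Psmd8, Psmd9 and Psmd12). AACO replicate 3 was the AACO array nearest to the control mean for 23 members, 51.1%, for 48.1% of all genes and for 46.1% of those of like signal.

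**Figure D2:**
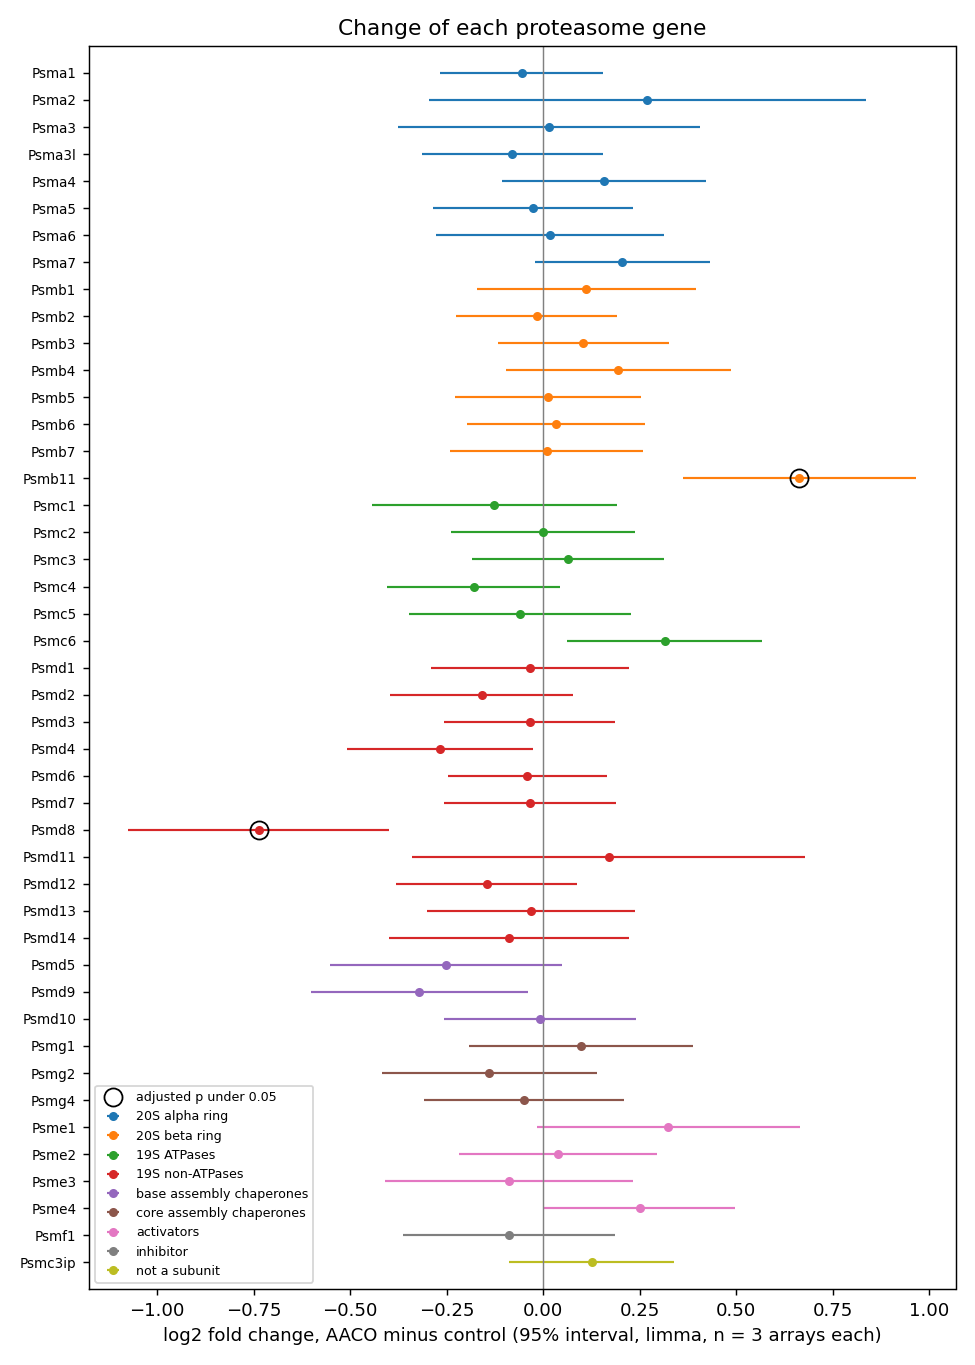
Log2 fold change of each of the 45 genes, AACO minus control (horizontal axis), with its 95% interval from limma (3 arrays in each group), ordered and coloured by role from the alpha ring at the top to Psmc3ip at the bottom. Rings mark the 2 genes with adjusted p under 0.05, Psmb11 at 0.66 and Psmd8 at −0.74, and most other intervals include 0.

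In the alpha ring of the core, whose subunits form the gate, none of 8 genes passed. Their median log2 fold change was 0.02, from −0.08 for Psma3l to 0.27 for Psma2. Psma7 (chr3:169102472-169103179, rn4, minus strand) had scaled log2 signals of 3.61, 3.70 and 3.58 on the AACO arrays and 3.46, 3.47 and 3.34 on the control arrays. The groups did not overlap, and the log2 fold change was 0.21 ± 0.09 (adjusted p = 0.198). Psma4 had 2.81, 2.82 and 2.72 with AACO and 2.55, 2.80 and 2.54 in control hearts, a difference of 0.16 ± 0.11 (adjusted p = 0.372) in which control replicate 2 lay within the AACO range. The largest value of the ring, that of Psma2, rested on 1 array: Psma2 read 1.69, 1.75 and 1.85 with AACO and 0.95, 1.84 and 1.68 in control hearts, with control replicate 1 the low one (0.27 ± 0.23, adjusted p = 0.472).

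The probes of Psma3 and of Psma3l, a gene named for its likeness to Psma3, lie 1000 bases apart on chromosome 6. Their mean scaled log2 signals on the AACO arrays were −0.04 and 3.40. Whether each probe reads only its own gene was not tested. Psma3 read −0.22, −0.01 and 0.10 on the AACO arrays and −0.35, 0.13 and 0.05 on the control arrays, which overlapped (0.01 ± 0.16, adjusted p = 0.961). Psma3l differed by −0.08 ± 0.10 (adjusted p = 0.612).

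In the beta ring, which holds the cutting sites, the 3 standard catalytic subunits were close between the groups. Psmb5, the chymotrypsin-like subunit, had 4.16, 4.05 and 4.08 on the AACO arrays and 4.09, 4.19 and 3.97 on the control arrays. The AACO values lay within the control range, and the log2 fold change was 0.01 ± 0.10, with a 95% interval of −0.23 to 0.25 (adjusted p = 0.944). Psmb6, the caspase-like subunit, had 2.36, 2.44 and 2.40 with AACO and 2.47, 2.36 and 2.27 in control hearts (0.03 ± 0.10, interval −0.20 to 0.26). Psmb7, the trypsin-like subunit, had 2.94, 2.90 and 3.12 with AACO and 2.96, 3.05 and 2.92 in control hearts (0.01 ± 0.10, interval −0.24 to 0.26). The groups overlapped for both. Psmb4, a structural subunit, read 4.25, 4.15 and 4.09 with AACO and 3.77, 4.10 and 4.03 in control hearts, with control replicate 1 low (0.19 ± 0.12, adjusted p = 0.321). The other structural subunits Psmb1, Psmb2 and Psmb3 differed by 0.11, −0.02 and 0.10, with adjusted p of 0.552, 0.914 and 0.48.

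Psmb11, the only member of either ring that passed, encodes the beta5t subunit known from the cortex of the thymus and is not a standard subunit of heart proteasomes. Its scaled log2 signals were −5.10, −5.28 and −5.30 on the AACO arrays and −5.97, −6.01 and −5.69 on the control arrays. The groups did not overlap, and it rose 1.58-fold (log2 0.66 ± 0.13, 95% interval 0.36 to 0.97, adjusted p = 0.0271). The probe was well above background on all 3 AACO arrays and on 2 of 3 control arrays, so it is also the only member not measured well above background on every array. The direction turned with the background correction: with normexp correction the log2 fold change was −0.15 (adjusted p = 0.526). The rise was called in 9 of 16 alternatives, and in 2 of 6 fits without 1 array. The call was lost without AACO replicate 1 (adjusted p = 0.093), AACO replicate 2 (0.0889), control replicate 1 (0.0604) or control replicate 2 (0.0652). With the level of the atrial transcripts as a covariate it was 0.59 (adjusted p = 0.337), and without scaling 1.15 (0.00187).

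A second probe of Psmb11 was well above background on no AACO array and on 1 control array, and was not tested. The used probe lies at chr15:32705019-32705078 (rn4, plus strand), 14826 bases from that of Psmb5. It is shown for its last 20 bases, which end in a short repeat, in capitals, that is rare on this array:
Psmb11 probe end: agacagacAAACAAACAAAC
A run of 3 such units of AAAC on the probe strand was found in 6 of 30367 non-control probes, or 0.0198%, and in no other member's probe. Whether the repeat bears on the signal was not tested.

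The 6 ATPases of the cap, which form the ring that unfolds substrates, had a median log2 fold change of −0.03, and none passed. Psmc6, the Rpt4 subunit, stood nearest the threshold (chr15:21238582-21238641, rn4, plus strand). It read −0.11, 0.04 and −0.15 on the AACO arrays and −0.41, −0.28 and −0.47 on the control arrays. The AACO values were all above the control values, with a log2 fold change of 0.31 ± 0.11 (95% interval 0.06 to 0.57, adjusted p = 0.103). Psmc4, the Rpt3 subunit, lay the other way without overlap, with 1.41, 1.42 and 1.57 on the AACO arrays and 1.67, 1.62 and 1.65 on the control arrays (−0.18 ± 0.09, adjusted p = 0.242). Psmc2, the Rpt1 subunit, was close between the groups at 4.16, 4.20 and 4.27 with AACO and 4.18, 4.33 and 4.12 in control hearts (0.00 ± 0.10, adjusted p = 0.994). The other ATPases Psmc1, Psmc3 and Psmc5 differed by −0.13, 0.06 and −0.06.

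Of the 11 non-ATPase subunits of the cap, which make up the lid and the scaffolds of the base, 1 fell and none rose. The 1 that fell is 9.09% of them, against 4.94% of all genes that fell and 11.3% called in either direction. Their median was −0.04, against 0.04 over all genes. A negative log2 fold change was found for 10 of the 11, and for 7920 of all 17536 genes. These small values depend on the scaling: without scaling between arrays the median of all genes was 0.52 and 44 of the 45 members were positive, and with spike-in scaling 29 of 45 were positive.

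Psmd8, the lid subunit Rpn12, which in budding yeast is the last to join the lid, was the member with the largest change. Its scaled log2 signals were 1.22, 1.17 and 1.58 on the AACO arrays and 2.10, 1.95 and 2.14 on the control arrays. The groups did not overlap, and AACO replicate 3 lay between the other AACO arrays and the control arrays. Psmd8 was 1.67-fold lower with AACO (log2 −0.74 ± 0.14, 95% interval −1.07 to −0.40, adjusted p = 0.0275). The change was negative in all 17 alternatives, from −0.87 to −0.25, and was called in 9 of them. The call was lost without AACO replicate 1 (adjusted p = 0.097), AACO replicate 2 (0.1005), control replicate 1 (0.0595) or control replicate 3 (0.0844), and without AACO replicates 1 and 2 together it was −0.48 (0.355). It also did not pass with spike-in scaling (−0.69, adjusted p = 0.0684), with the atrial covariate (−0.45, 0.355) or without scaling (−0.25, 0.447).

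Psmd8 has 1 probe on the array, at chr1:84310801-84310860 (rn4, minus strand), so no other probe bears on its value. The probe is shown because the only fall among the 45 genes rests on these 60 bases:
Psmd8 probe: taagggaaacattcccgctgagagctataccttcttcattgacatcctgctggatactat
The part of the gene it covers is not given here.

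**Figure D3:**
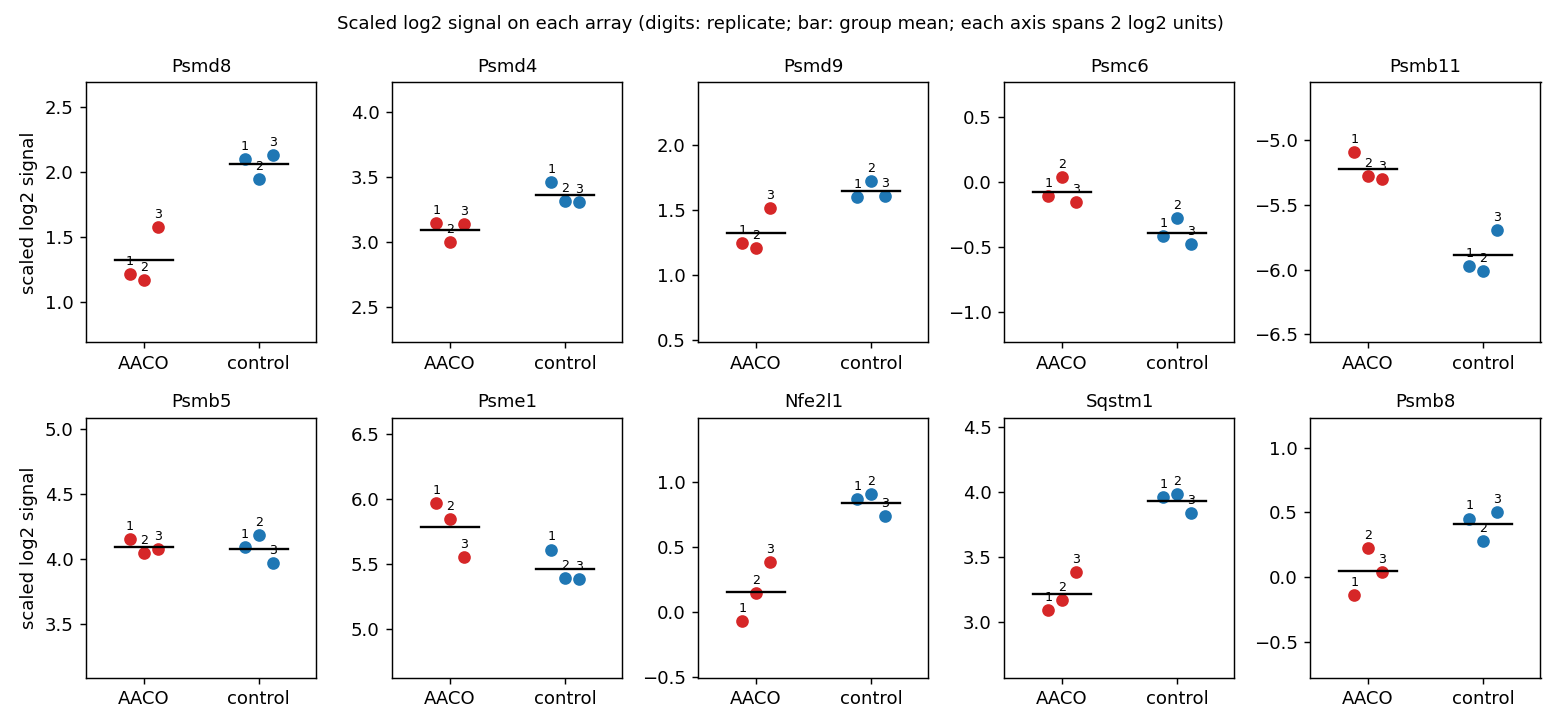
Scaled log2 signal (vertical axis, each panel spanning 2 log2 units) on each AACO and control array for 7 proteasome genes and for Nfe2l1, Sqstm1 and Psmb8; digits give the replicate and bars the mean of 3 arrays. Psmd8, Nfe2l1 and Sqstm1 lie lower on every AACO array, with AACO replicate 3 nearest to the control arrays, and Psmb5 overlaps between the groups.

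Psmd4, the ubiquitin receptor Rpn10, lay lower in AACO hearts on all arrays but did not pass after adjustment. It read 3.15, 2.999 and 3.14 on the AACO arrays and 3.46, 3.32 and 3.30 on the control arrays. Its log2 fold change was −0.27 ± 0.10, with a 95% interval of −0.51 to −0.03 (adjusted p = 0.131). Psmd12, the Rpn5 subunit, also did not overlap between the groups, at 3.70, 3.77 and 3.82 with AACO and 3.87, 4.02 and 3.84 in control hearts (−0.15 ± 0.10, adjusted p = 0.351). Psmd13, the Rpn9 subunit, overlapped at 0.45, 0.34 and 0.38 with AACO and 0.54, 0.25 and 0.49 in control hearts (−0.03 ± 0.11, adjusted p = 0.872). The deubiquitinase Psmd14, which cuts ubiquitin chains off the substrate, differed by −0.09 ± 0.13, and the scaffold subunits Psmd1 and Psmd2 by −0.03 and −0.16. Psmd11 was the 1 non-ATPase subunit with a positive value (0.17 ± 0.21), with control replicate 2 low at −2.205. The other 3, Psmd3, Psmd6 and Psmd7, lay between −0.04 and −0.03.

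Core and cap genes can be set against each other within an array, where scaling drops out. The mean of 15 core genes (Psmb11 left out as dim) minus the mean of the 17 cap genes was 0.74, 0.76 and 0.68 on the AACO arrays and 0.47, 0.68 and 0.59 on the control arrays. The 17 cap genes are those taken by name, so the cap subunits Adrm1 and Sem1 are not among them, and no mean was taken with them included. For the genes used, the groups were apart by a narrow margin, with AACO replicate 3 at 0.681 and control replicate 2 at 0.675. The difference of the means was 0.15. Without Psmd8 it was 0.10 and the groups overlapped, with AACO replicate 3 at 0.636 and control replicate 2 at 0.651. These sums were not tested, and they compare the balance of signals between arrays, not the number of core and cap transcripts.

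Of the base assembly chaperones, which hold groups of ATPases during assembly, none passed, and all 3 had negative values (median −0.25). Psmd9, also called p27, read 1.25, 1.204 and 1.51 on the AACO arrays and 1.60, 1.72 and 1.61 on the control arrays. The groups did not overlap (−0.32 ± 0.12, adjusted p = 0.124), and the other probe of Psmd9 was at −0.20 with overlapping groups. Psmd5 had −1.37, −1.37 and −1.14 with AACO and −1.21, −0.94 and −0.96 in control hearts, with AACO replicate 3 inside the control range (−0.25 ± 0.12, adjusted p = 0.225). Psmd10, known as gankyrin, overlapped at 0.38, 0.47 and 0.59 with AACO and 0.50, 0.56 and 0.40 in control hearts (−0.01 ± 0.10, adjusted p = 0.964). The 3 core chaperone genes, whose products build the alpha ring, did not pass either. Psmg1 differed by 0.10 ± 0.12 (adjusted p = 0.616), Psmg2 by −0.14 ± 0.12 (0.453) and Psmg4 by −0.05 ± 0.11 (0.785), and all 3 overlapped between the groups. On the arrays Psmg1 read 3.16, 2.88 and 3.001 with AACO and 2.91, 3.05 and 2.79 in control hearts. Psmg2 read −1.27, −1.32 and −0.998 with AACO and −1.02, −1.05 and −1.09 in control hearts. Psmg4 read 1.73, 1.86 and 1.83 with AACO and 1.82, 2.005 and 1.74 in control hearts, and its other probe had a positive log2 fold change of 0.17.

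The activators dock on the ends of the core in place of the cap. None of the 4 passed, and 3 had positive values (median 0.14). Psme1, the alpha chain of the interferon-inducible activator PA28, read 5.97, 5.84 and 5.55 on the AACO arrays and 5.61, 5.39 and 5.38 on the control arrays. AACO replicate 3 lay below control replicate 1, so the groups overlapped (0.32 ± 0.14, 95% interval −0.02 to 0.66, adjusted p = 0.178). Psme2, the beta chain of the same activator, whose probe lies 7323 bases from that of Psme1 on chromosome 15, read 3.68, 3.61 and 3.53 with AACO and 3.71, 3.49 and 3.49 in control hearts (0.04 ± 0.11, adjusted p = 0.832). Psme3, the nuclear PA28 gamma, differed by −0.09 ± 0.13 (adjusted p = 0.689).

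Psme4, the activator PA200, differed in sign between its 2 probes. On the brighter it read 1.56, 1.60 and 1.77 on the AACO arrays and 1.34, 1.47 and 1.37 on the control arrays, without overlap (0.25 ± 0.10, adjusted p = 0.158). On the other, 0.73, 0.51 and 0.68 with AACO stood against 0.71, 0.88 and 0.73 in control hearts, a difference of −0.14 ± 0.11 in a fit of all probes. The inhibitor gene Psmf1, which encodes PI31, read 1.37, 1.70 and 1.59 with AACO and 1.67, 1.62 and 1.65 in control hearts (−0.09 ± 0.11, adjusted p = 0.631), and its other probe was at −0.18. Psmc3ip, the recombination factor, read −1.14, −1.25 and −1.22 with AACO and −1.29, −1.38 and −1.32 in control hearts, without overlap (0.13 ± 0.09, adjusted p = 0.376).

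The interferon-gamma-inducible subunits Psmb8, Psmb9 and Psmb10 replace the 3 catalytic beta subunits to form the immunoproteasome, which is abundant in immune cells. None of the 3 passed. Psmb8 read −0.13, 0.23 and 0.04 on the AACO arrays and 0.45, 0.28 and 0.50 on the control arrays, lower with AACO on every array (−0.37 ± 0.13, adjusted p = 0.116). Psmb9 read 1.35, 1.39 and 1.197 with AACO and 1.44, 1.03 and 1.33 in control hearts (0.05 ± 0.14, adjusted p = 0.836). Psmb10 read 1.89, 2.08 and 1.85 with AACO and 2.14, 1.97 and 2.04 in control hearts (−0.11 ± 0.11, adjusted p = 0.522). Within each array, the mean of these 3 minus the mean of Psmb5, Psmb6 and Psmb7 was −2.06 ± 0.145 on the AACO arrays and −1.90 ± 0.184 on the control arrays (SD, n = 3 each). The difference was −0.16 and the values overlapped between the groups. The two-sided exact permutation p was 0.2, and with 3 arrays against 3 this test cannot go below 0.1, so it could not pass. Of the 12 macrophage markers counted above, 9 fell and 3 did not pass. The part of these markers in the values of Psmb8 was not tested. Of 7 further genes of interferon-inducible antigen processing none passed. The smallest p was that of the peptide transporter gene Tap1 (−0.33, adjusted p = 0.141).

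Among 6 regulators of proteasome genes 1 fell, or 16.7%, against 11.3% of all genes called, and it was Nfe2l1, the transcription factor named above. Nfe2l1 read −0.07, 0.14 and 0.38 on the AACO arrays and 0.87, 0.91 and 0.74 on the control arrays. The groups did not overlap, with AACO replicate 3 nearest to the control arrays, and the log2 fold change was −0.69 ± 0.14 (adjusted p = 0.0324). It passed in 8 of 17 alternatives and, among the fits without 1 array, only in the fit without AACO replicate 3 (adjusted p = 0.0242, against 0.0676 to 0.11 without any other array). The call of Nfe2l1 was also lost with spike-in scaling (−0.64, adjusted p = 0.087) and with the atrial covariate (−0.46, 0.398). Nfe2l2, the related antioxidant factor, was close between the groups (−0.04 ± 0.10, adjusted p = 0.828). So were Ddi2 and Ngly1, the protease and the glycanase that activate NFE2L1 (0.05 and 0.02, adjusted p = 0.849 and 0.912), and Keap1 and Hsf1 (0.08 and 0.01).

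The 45 genes were also read for sequence features around their start. Of them 39 matched a 300-base window in RefSeq's promoter table of assembly GRCr8, from 250 bases before to 50 after the start. The table does not list Psma3l, Psma7, Psmb11, Psmd6, Psmd12 and Psmd14. The motifs were searched on both strands. The core of the antioxidant response element bound by NFE2L1 and NFE2L2, TGACNNNGC, was present in 8 of the 39 (20.5%), against 12.1% of all 33469 promoters in the table. The CCAAT box was present in 19 (48.7%), against 37.5%, and the heat shock element GAANNTTC in 2 (5.13%), against 8.59%. Psmd8 was among the 15 members with none of the 3 motifs.

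The median log2 fold change of the genes with the antioxidant core was 0.00, from −0.32 for Psmd9 to 0.25 for Psme4, against −0.01 for the 31 without it, and none of the 8 passed the test. This core is bound by NFE2L1, whose gene fell, and by NFE2L2, whose gene did not pass. Whether it bears on the values of the genes that hold it was not tested. The windows that lie wholly before the start are shown with the core in capitals, 5′ to 3′ on the strand of the gene:
Psmb2 (chr5:144254974-144255014, GRCr8, plus strand): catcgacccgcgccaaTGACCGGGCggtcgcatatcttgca
Psmb5 (chr15:32047415-32047455, GRCr8, minus strand): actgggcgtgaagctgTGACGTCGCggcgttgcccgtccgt
Psmd1 (chr9:94157790-94157830, GRCr8, plus strand): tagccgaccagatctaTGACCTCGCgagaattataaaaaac
Psmd9, far site (chr12:39018364-39018404, GRCr8, minus strand): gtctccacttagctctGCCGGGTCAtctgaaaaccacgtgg
Psmd9, near site (chr12:39018317-39018357, GRCr8, minus strand): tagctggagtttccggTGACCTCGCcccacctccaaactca
Psme4 (chr14:108706572-108706612, GRCr8, plus strand): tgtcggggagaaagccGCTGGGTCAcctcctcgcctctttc
The far site of Psmd9 and the site of Psme4 hold the core on the opposite strand. In Psmb2 the core begins within a CCAAT box, the only such overlap among the members. The matches in Psma3, Psmb6 and Psmd3, and a further match in Psmd1, lie at or near the start, so that their windows reach past it and are not shown. A match describes letters in a window and is not a binding site, and binding was not measured.

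**Figure D4:**
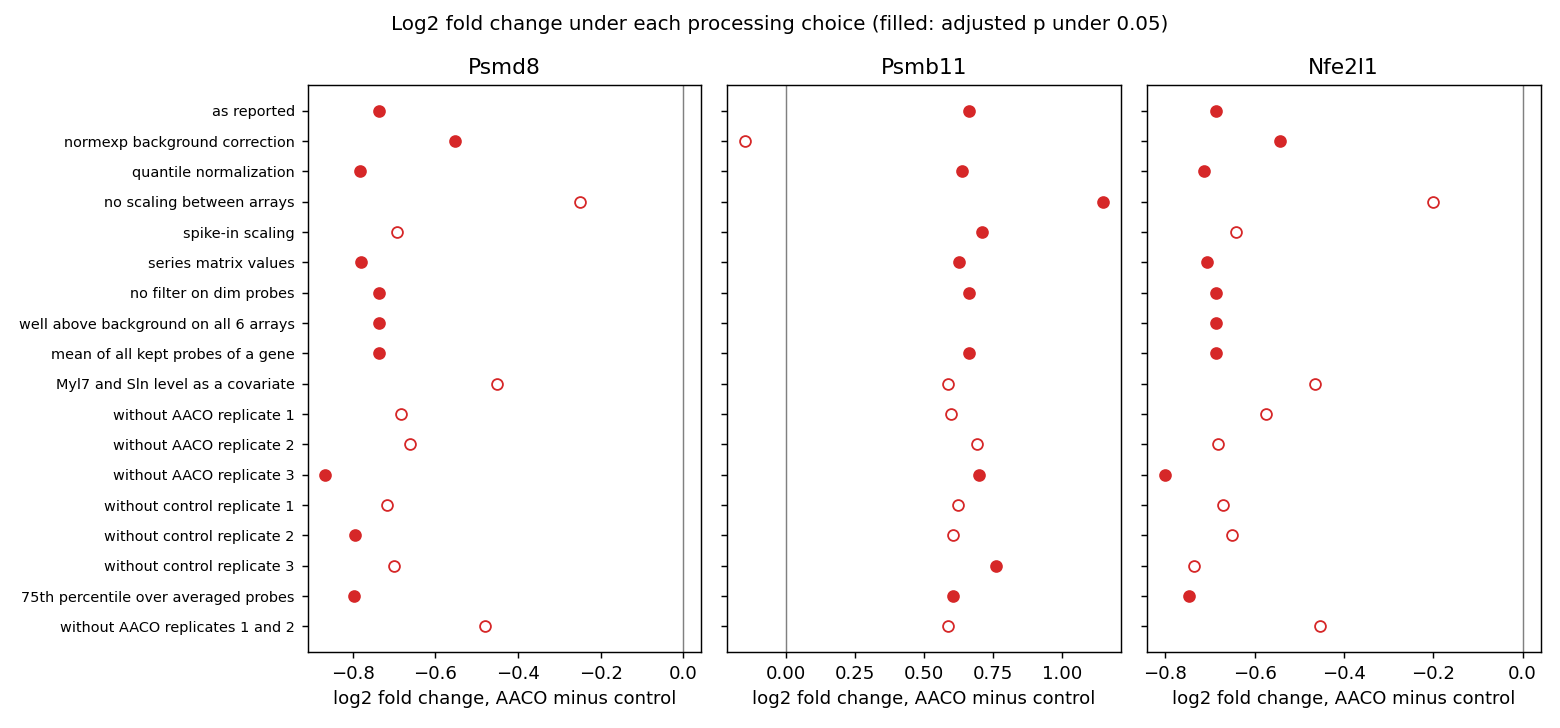
Log2 fold change, AACO minus control (horizontal axis), of Psmd8, Psmb11 and Nfe2l1 as reported and under each alternative (rows); filled points have adjusted p under 0.05. Psmd8 and Nfe2l1 stay below 0 in every row, and Psmb11 lies above 0 except with normexp background correction, at −0.15.

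No partner gene of the proteasome passed the test. Of 16 tested shuttle receptors, deubiquitinases and cap partners none passed in limma, against 11.3% of all genes called, and their median was −0.07. At an unadjusted p under 0.05 stood 2 of the 16, or 12.5%, against 30.8% of all genes. For 7, or 43.8%, the groups did not overlap, 6 lower and 1 higher with AACO, against 37.4% of all genes. Without scaling between arrays all 16 log2 fold changes were positive. The cap's ubiquitin receptor Adrm1, known as Rpn13, read −2.69, −2.71 and −2.51 on the AACO arrays and −3.87, −2.96 and −2.91 on the control arrays. The groups did not overlap, and control replicate 1 was low (0.61 ± 0.27, adjusted p = 0.18). The small cap subunit Sem1 differed by −0.04 and the core chaperone Pomp by −0.03. The 2 genes of smallest p were Zfand5 (−0.28 ± 0.10, adjusted p = 0.123), which is induced in wasting muscle of mice, and the arsenite-inducible Zfand2a (−0.33 ± 0.14, adjusted p = 0.162). The ubiquitin genes and the activating enzymes at the head of the pathway did not pass either, with 0 of 8 called and 0 at an unadjusted p under 0.05 (median 0.03).

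Next to the proteasome, genes for handling ubiquitin-tagged and aggregated proteins had negative scaled values as a list, and 1 of 10 passed. All 10 log2 fold changes were negative (median −0.22, against 0.04 over all genes), but without scaling between arrays 9 of the 10 were positive and Sqstm1 alone was negative. The share that passed was 10%, against 11.3% of all genes, and 4 of 10 had an unadjusted p under 0.05, against 30.8% of all genes. Sqstm1, the autophagy receptor p62, read 3.09, 3.17 and 3.38 on the AACO arrays and 3.96, 3.98 and 3.83 on the control arrays. It fell, with a log2 fold change of −0.71 ± 0.11 (adjusted p = 0.0181). With the mean of all its probes in place of the brightest it was −0.36 (adjusted p = 0.063), and it passed in 10 of 17 alternatives. The call was also lost without AACO replicate 1 (0.066) or AACO replicate 2 (0.0812), with spike-in scaling (−0.67, 0.0559) and with the atrial covariate (−0.53, 0.28). Bag3, a co-chaperone of aggregate clearance in muscle, read 5.16, 5.28 and 5.38 with AACO and 5.58, 5.75 and 5.56 in control hearts, without overlap (−0.36 ± 0.11, adjusted p = 0.0801). Vcp, the segregase itself, differed by −0.07 ± 0.10 (adjusted p = 0.653).

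Of 10 ubiquitin ligases of muscle, which tag proteins for the proteasome, 2 fell, or 20%, against 4.94% of all genes that fell and 11.3% called in either direction. Ube4b, a ligase that lengthens ubiquitin chains, read −2.45, −2.25 and −2.39 on the AACO arrays and −1.44, −1.67 and −1.43 on the control arrays (−0.85 ± 0.11, adjusted p = 0.0123). It passed in 5 of 6 fits without 1 array and missed without AACO replicate 1 (adjusted p = 0.0532). Cblb, a ligase of receptor signalling, read −0.89, −1.02 and −1.04 with AACO and −0.49, −0.15 and −0.19 in control hearts (−0.71 ± 0.13, adjusted p = 0.023). Cblb passed without AACO replicate 3 (adjusted p = 0.0452) and without control replicate 1 (0.02), but not without any other array (0.0553 to 0.0903). With the atrial covariate, a fit in which no gene passed, Ube4b was −0.93 (adjusted p = 0.171) and Cblb −0.76 (0.25). The ligases best known from muscle wasting, Fbxo32 (atrogin) and Trim63 (MuRF), chosen for naming after their values were seen, differed by −0.19 (adjusted p = 0.289) and −0.05 (0.797). Mul1 and Fbxo30 of the same list lay lower with AACO without overlap but did not pass (−0.49 and −0.44, adjusted p = 0.0634 and 0.1). Of the 10 ligases, 7 had negative and 3 had positive values. Without scaling between arrays the log2 fold changes of Nfe2l1, Sqstm1, Ube4b and Cblb were −0.20, −0.22, −0.36 and −0.22, and none of the 4 passed.

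Some probes of proteasome genes carry names outside the pattern. The testis-type alpha subunit Psma8, under an older name on the array, was well above background on no array. Further probes named only by an accession or a locus number have no matching symbol here and were left unnamed. Those tested had log2 fold changes of 0.18, 0.21 and 0.41. None passed in a limma fit of all probes, where the smallest adjusted p was 0.0703.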

How the data were processed

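RNA of 6 samples was measured on single-colour arrays. Per the submitters' processing notes and the file headers, spots were quantified in Agilent Feature Extraction 10.7.1.1. The deposited intensity is the processed signal of each spot, on probes placed on build rn4. A deposited matrix gives log2 values too, with a median of 6.77 in every column; its exact normalization is not given in the sources used here, and it served as an alternative.

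Spots marked as outliers and control spots were left out. Log2 intensity was averaged over the spots of a probe, and the array's 75th percentile over non-control spots was subtracted. Probes well above background on at least 3 of 6 arrays were kept (20112 of 30367), and the brightest probe stood for each of 17536 genes. AACO was compared with control by limma 3.58.1 (lmFit, eBayes, two-sided, Benjamini-Hochberg) in R 4.3.3, after the procedure was tested on simulated data. The number of arrays limits the precision. No non-control spot was saturated.

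The fixed design said percentile over probes, and it was taken over the spots of these probes; the other reading is among the alternatives. Members and gene lists were chosen with earlier results of these data known. Named were members that passed, in each structural class the 2 of smallest and the 1 of largest p, the catalytic subunits, members not above background everywhere, members whose probes disagreed, and of the other lists those called and the 2 of smallest p; a few others were named after their values were seen. One gene that this rule names is not reported here. Gene names are those of the arrays, and the accessions of 45 of the 50 member probes matched RefSeq under the same symbol. Promoters are RefSeq's. Alternatives covered background correction, scaling, filter, probe choice, the deposited log2 values, an atrial covariate and leaving out arrays. Pairing was not used, since the sample numbers are not shared between groups.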

Additional observations from a re-analysis of the deposited data

How the results depend on the processing

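Of 17 alternatives, 2 were chosen after seeing the data: the percentile over averaged probes, and the fit without AACO replicates 1 and 2. As reported, 1108 genes rose and 867 fell (56.1% higher), with 1 proteasome gene in each direction. With normexp background correction 1529 fell (33.6% of calls higher), 0 proteasome genes rose, the median of all genes was −0.07, and Psmb11 reversed to −0.15. Without scaling 5493 rose and 232 fell (95.9% higher), 7 proteasome genes rose and 0 fell, and their median was 0.47, against 0.52 for all genes. With spike-in scaling 505 fell (69.2% higher) and 0 proteasome genes fell. With no filter 1401 fell (35.6% higher), and the percentile over averaged probes gave 45.7% higher. With probes well above background on all 6 arrays 0 proteasome genes rose, since Psmb11 was not tested. With the level of Myl7 and Sln as covariate, limma called 0 genes in either direction, 0 proteasome genes among them, though 2276 genes and 3 proteasome genes had an unadjusted p under 0.05. Without AACO replicates 1 and 2 it called 0 too, with 2217 genes and 2 proteasome genes at that p. There the lone AACO array is assumed to vary like the control arrays. Leaving out 1 array at a time gave 108 to 1227 genes higher and 149 to 939 lower, 0 to 1 proteasome genes in each direction, a median of −0.04 to 0.02, and an immunoproteasome difference of −0.26 to −0.09. The smallest counts came without AACO replicate 2 and then without AACO replicate 1. The causes were not tested. No paired analysis was possible because the sample numbers in the titles are not shared between the groups.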
